A study of Mus musculus with 8 samples.

Results

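Cldn5, Jam2, Esam, Cdh5, Pecam1, Kdr, Tek, Ramp2, Robo4 and Emcn encode junction proteins, adhesion molecules and receptors best known from the lining of blood vessels. These 10 of the 24421 gene symbols in the deposited tables were taken by name, and they are followed here across blood stem cells that were sorted for, or against, a von Willebrand factor reporter. The list was chosen by the levels of endothelial-type genes in Vwf+ against Vwf- cells of the same 8 libraries, so the values in that comparison are given as a description with no test. The other genes of the same pathways, the genotype comparison and the comparison of male with female pools were tested. The lists of other genes were also made with earlier results of these data known. The share of a list that passed between fractions is therefore a description.

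The RNA came from mouse bone marrow stem cells sorted as long-term repopulating (LT-HSCs), in 8 libraries that form 4 groups of 2. The groups were Vwf+ cells of Dnmt3a+/- mice, Vwf+ cells of wild-type (WT) mice, Vwf- cells of Dnmt3a+/- mice and Vwf- cells of WT mice, where Dnmt3a+/- mice carry 1 altered copy of the gene for a de novo DNA methyltransferase. All cells were lineage-negative, CD117+ and Sca1+ with high CD150 and low CD48, came from mice of 10 to 12 months that carry the Vwf-GFP reporter, and were split by that reporter into Vwf-GFP+ and Vwf-GFP- fractions. Each library was a pool of 3 to 4 mice, with males in replicate 1 and females in replicate 2 of every group. The labels do not describe the altered Dnmt3a allele, and they do not say whether the Vwf+ and Vwf- cells of a genotype and replicate came from the same mice.

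In endothelium, tight junctions are sealed by claudins and adherens junctions by VE-cadherin, and immunoglobulin-like molecules such as the JAM proteins, ESAM and PECAM-1 join neighbouring cells and guide leukocyte passage. The VEGF receptor encoded by Kdr and the angiopoietin receptor encoded by Tek (Tie2) drive and stabilise vessels. Several of these genes are also active in blood stem cells, where ESAM, endomucin, ROBO4, PECAM-1 and Tie2 have been used as surface markers. Von Willebrand factor itself is made by endothelium as well as by megakaryocytes, so a Vwf reporter alone does not tell these lineages apart.

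Sequences from just before the annotated start were available from RefSeq (build GRCm38.p6) for 5 of the 10 genes, namely Emcn, Tek, Kdr, Robo4 and Cldn5. Those of Cldn5 and Kdr, whose levels differed most between the fractions among the 5, are shown beside that of Emcn, whose level was alike in both. Each line gives the 250 bases before the RefSeq start, 5′ to 3′ on the gene's strand, and capitals mark the short motifs searched for on both strands. Gene positions given further below are from the GENCODE M21 annotation, whose starts differ for some genes. The Emcn window, for example, ends at 137341077, past the GENCODE start at 137341067. Motif distances are counted from the RefSeq start.
Cldn5, chr16:18776597-18776846, plus strand: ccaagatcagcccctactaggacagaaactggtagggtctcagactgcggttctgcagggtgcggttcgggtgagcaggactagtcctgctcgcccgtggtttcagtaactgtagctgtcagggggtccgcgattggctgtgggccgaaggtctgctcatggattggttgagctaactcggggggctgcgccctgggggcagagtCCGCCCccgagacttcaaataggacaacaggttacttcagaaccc
Kdr, chr5:75978456-75978705, minus strand: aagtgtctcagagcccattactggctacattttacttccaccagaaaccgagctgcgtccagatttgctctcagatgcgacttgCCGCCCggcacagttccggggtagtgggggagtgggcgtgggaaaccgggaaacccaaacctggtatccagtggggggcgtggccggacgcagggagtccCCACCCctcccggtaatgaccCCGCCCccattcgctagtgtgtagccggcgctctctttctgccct
Emcn, chr3:137340828-137341077, plus strand: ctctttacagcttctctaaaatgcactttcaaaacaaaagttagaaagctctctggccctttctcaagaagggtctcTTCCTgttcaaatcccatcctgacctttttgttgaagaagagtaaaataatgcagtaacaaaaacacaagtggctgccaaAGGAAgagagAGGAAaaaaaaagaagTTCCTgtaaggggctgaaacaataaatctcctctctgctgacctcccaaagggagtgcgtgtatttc

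The motifs were the core bound by ETS factors (AGGAA), which many endothelial and blood genes carry, and the core of GATA factors (GATAA). The CACCC-type box of KLF factors was searched as CCACCC. The fourth was the GC box of Sp1-like factors, searched as GGGCGG. Reverse complements were counted as well, and no capital run above joins different motifs. The Cldn5 window held 1 GC box, which began 45 bases before the start, and none of the other motifs. In Kdr there were 2 GC boxes, 166 and 45 bases before the start, and 1 KLF box. The Emcn window held 4 ETS cores, 173, 93, 83 and 67 bases before the start, and Tek and Robo4 held 2 each. No GATA core was found in any of the 5 windows. The GC content was 59.6% in Cldn5 and 61.6% in Kdr, against 40.8% in Emcn, 49.6% in Robo4 and 51.2% in Tek. Of 32851 RefSeq windows of this length in mouse, 60.3% held an ETS core, 22.6% a GATA core, 28.1% a KLF box and 32.7% a GC box, so each of these letter strings is common and a match is a description only.

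Total counts ran from 21809278 to 39402418 per library. Levels are CPM, which scale every library to 1e+06 counts with TMM factors, and differences are log2 changes from edgeR's quasi-likelihood fit, with the standard error (SE). Vwf stood at 1034 to 1409 CPM in the Vwf+ libraries and at 98.9 to 116 CPM in the Vwf- libraries. The pan-leukocyte gene Ptprc (CD45) was at 212 to 275 CPM in Vwf+ and 231 to 269 CPM in Vwf- cells, and Kit (CD117) was at 815 to 883 CPM in Vwf+ and 914 to 1033 CPM in Vwf- cells. Dnmt3a counts were not lower in the heterozygotes, with 179 and 279 CPM in Vwf+ Dnmt3a+/- cells against 175 and 203 CPM in Vwf+ WT cells, and 361 and 275 CPM in Vwf- Dnmt3a+/- cells against 251 and 202 CPM in Vwf- WT cells. A gene-level count cannot show which allele was transcribed, so this does not check the genotype labels. The female Vwf+ Dnmt3a+/- library (replicate 2) stood apart, with the platelet genes Ppbp at 20.2 CPM, against 0.301 to 1.53 CPM in the other Vwf+ libraries, and Tubb1 at 28.7 CPM, against 2.63 to 3.91 CPM. Results that rest on this library are given below also without it.

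The 10 genes fell into groups of unlike behaviour between the fractions. Cldn5, Ramp2, Kdr, Jam2 and the weakly detected Cdh5 were 4.22-fold to 44.1-fold higher in Vwf+ cells, Tek, Esam and Pecam1 were 1.22-fold to 1.38-fold higher, and Robo4 and Emcn differed by no more than 1.07-fold. A log2 change over 1 was seen for 5 of the 10 genes, beside 6.98% of the 15917 genes tested, and all 10 passed the filter on low counts. The 4 Vwf+ values lay above all 4 Vwf- values for 8 of the 10 genes, beside 7.71% of all genes. Because the genes were chosen with this contrast in view, nothing is read from these shares. In sorted bulk cells, a difference in the number of expressing cells and a difference in RNA per cell cannot be told apart.

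**Figure D1:**
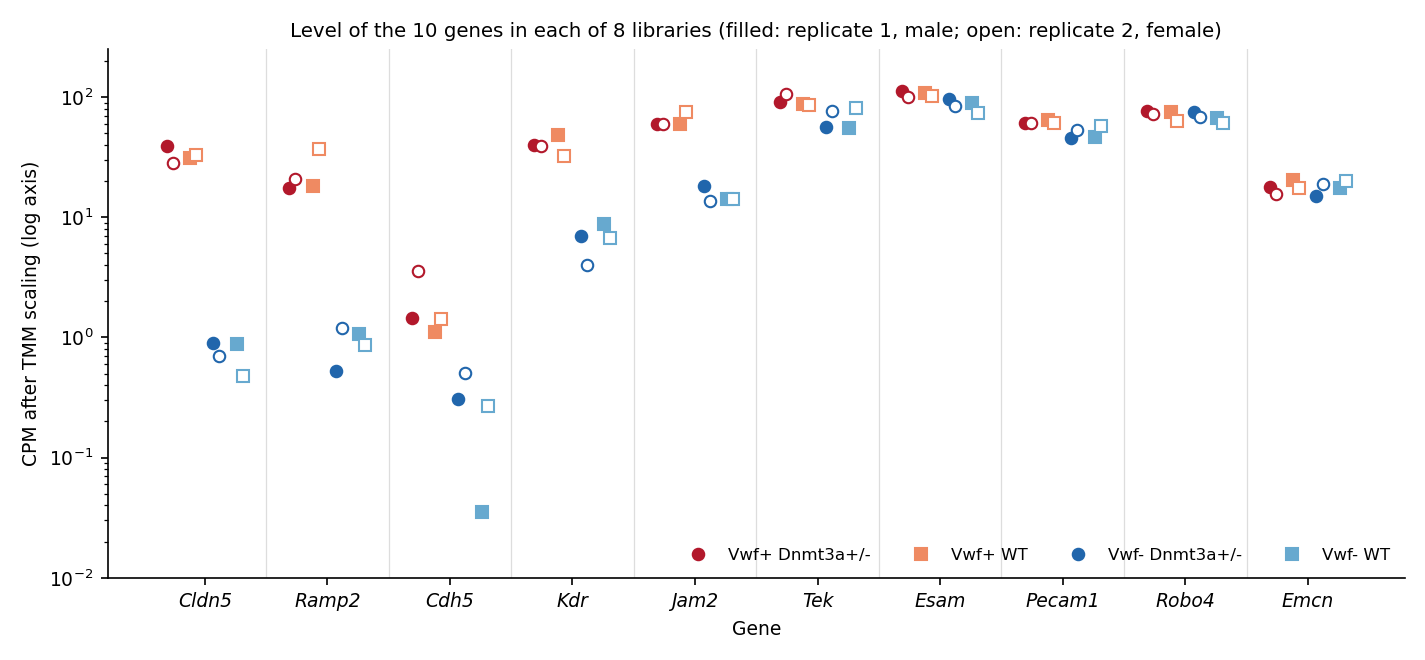
CPM after TMM scaling (log axis) of the 10 genes in each of the 8 libraries, with Vwf+ libraries in red and orange and Vwf- libraries in blue. Filled symbols are replicate 1 (male) and open symbols replicate 2 (female). The Vwf+ and Vwf- libraries are far apart for Cldn5 and Ramp2 and interleaved for Robo4 and Emcn.

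Among the junction genes, the tight-junction gene Cldn5 (chromosome 16, 18776847 to 18778262) had 38.8 and 28.3 CPM in Vwf+ Dnmt3a+/- cells and 31.1 and 33.2 CPM in Vwf+ WT cells, against 0.907 and 0.702 CPM in Vwf- Dnmt3a+/- cells and 0.885 and 0.48 CPM in Vwf- WT cells. Values are given for replicate 1 and then replicate 2, here and below. The fractions lay far apart in every library, and the lowest of the 4 Vwf+ values was that of the female Dnmt3a+/- pool. In raw counts, Cldn5 had 691 to 884 in Vwf+ and 16 to 38 in Vwf- libraries. The Vwf+ minus Vwf- difference was 5.46 ± 0.24 on the log2 scale (SE), with 5.36 ± 0.33 in Dnmt3a+/- cells and 5.57 ± 0.34 in WT cells. It stayed between 5.27 and 5.70 when any 1 library was left out.

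Jam2 (chromosome 16, 84774123 to 84825928) encodes JAM-B, an adhesion molecule that binds JAM-C on neighbouring cells. Its levels were 60.0 and 59.3 CPM in Vwf+ Dnmt3a+/- cells and 60.0 and 75.6 CPM in Vwf+ WT cells, against 18.3 and 13.6 CPM in Vwf- Dnmt3a+/- cells and 14.2 and 14.2 CPM in Vwf- WT cells. It was readily detected in both fractions, and no Vwf- value came near a Vwf+ value. The log2 difference was 2.08 ± 0.14 (SE), a fold of 4.22.

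Cdh5 (chromosome 8, 104101625 to 104144511) encodes VE-cadherin, the cadherin of endothelial adherens junctions and one of the genes by which endothelium is commonly defined. It was by far the weakest of the 10, with 1.45 and 3.55 CPM in Vwf+ Dnmt3a+/- cells and 1.12 and 1.42 CPM in Vwf+ WT cells, against 0.31 and 0.511 CPM in Vwf- Dnmt3a+/- cells and 0.0354 and 0.27 CPM in Vwf- WT cells. These levels rest on 33, 98, 25 and 33 counts in the Vwf+ libraries and on 13, 16, 1 and 9 counts in the Vwf- libraries, so each is imprecise. The highest value was in the female Vwf+ Dnmt3a+/- pool, which held more counts of Cdh5 than the other 3 Vwf+ libraries together. The difference between fractions was 2.80 ± 0.68 on the log2 scale (SE). It was 2.41 without the female Vwf+ Dnmt3a+/- library, between 2.41 and 3.80 whichever library was left out, and 0.75 on log2(TPM + 1), where a pseudocount outweighs such low values.

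Esam (chromosome 9, 37528078 to 37538319) and Pecam1 (chromosome 11, 106654217 to 106750628) encode adhesion molecules of the immunoglobulin superfamily that platelets and blood stem cells also carry. Esam was at 112 and 99.7 CPM in Vwf+ Dnmt3a+/- cells and 108 and 102 CPM in Vwf+ WT cells, against 96.6 and 85.0 CPM in Vwf- Dnmt3a+/- cells and 88.7 and 74.3 CPM in Vwf- WT cells. Pecam1 was at 61.3 and 61.4 CPM in Vwf+ Dnmt3a+/- cells and 64.9 and 61.4 CPM in Vwf+ WT cells, against 45.4 and 53.6 CPM in Vwf- Dnmt3a+/- cells and 46.4 and 58.0 CPM in Vwf- WT cells. Both genes were strongly expressed on either side of the gate, with narrow gaps between the fractions. The log2 differences were 0.29 ± 0.11 for Esam and 0.29 ± 0.11 for Pecam1 (SE). In the deposited TPM values, which are scaled by gene length and library but not by TMM, the fractions overlapped for both genes.

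Among the receptor genes, Kdr (chromosome 5, 75932827 to 75978458), whose product VEGFR2 is the main signalling receptor for VEGF-A, had 40.1 and 39.2 CPM in Vwf+ Dnmt3a+/- cells and 48.5 and 32.3 CPM in Vwf+ WT cells, against 6.92 and 4.02 CPM in Vwf- Dnmt3a+/- cells and 8.77 and 6.76 CPM in Vwf- WT cells. Every Vwf+ value lay well above every Vwf- value. The log2 difference was 2.61 ± 0.22 (SE), a fold of 6.13, with 2.85 ± 0.31 in Dnmt3a+/- cells and 2.38 ± 0.30 in WT cells. Tek (chromosome 4, 94739289 to 94874976) encodes Tie2, the angiopoietin receptor of endothelium and of quiescent stem cells. It stood at 90.3 and 107 CPM in Vwf+ Dnmt3a+/- cells and 88.4 and 85.5 CPM in Vwf+ WT cells, against 56.7 and 77.0 CPM in Vwf- Dnmt3a+/- cells and 54.8 and 80.6 CPM in Vwf- WT cells. The female Vwf- pools came close to the lowest Vwf+ value, and in TPM the fractions overlapped. The log2 difference for Tek was 0.46 ± 0.15 (SE).

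Ramp2 (chromosome 11, 101246028 to 101259546) encodes an accessory protein that turns the calcitonin receptor-like receptor into a receptor for adrenomedullin. It had 17.4 and 20.9 CPM in Vwf+ Dnmt3a+/- cells and 18.3 and 36.7 CPM in Vwf+ WT cells, against 0.525 and 1.21 CPM in Vwf- Dnmt3a+/- cells and 1.06 and 0.871 CPM in Vwf- WT cells. After Cldn5 it had the largest gap of the 10, and the female Vwf+ WT pool was the highest library. The log2 difference was 4.66 ± 0.33 (SE), a fold of 25.2. In the GENCODE M21 annotation of GRCm38, exons of Ramp2 and of Vps25, a sorting-complex gene on the same strand, overlap, so reads there are of uncertain assignment. Vps25 had 42.9 to 63.7 CPM in Vwf+ and 38.2 to 42.0 CPM in Vwf- cells, and its highest library was also the female Vwf+ WT pool. The share of Ramp2 reads in the overlap was not tested.

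Robo4 (chromosome 9, 37401897 to 37415115), a roundabout-family receptor that steadies vessels and helps anchor stem cells in the marrow, was level. It had 77.2 and 72.6 CPM in Vwf+ Dnmt3a+/- cells and 74.5 and 63.5 CPM in Vwf+ WT cells, against 74.6 and 67.9 CPM in Vwf- Dnmt3a+/- cells and 67.5 and 60.3 CPM in Vwf- WT cells. Emcn (chromosome 3, 137341067 to 137432185), which encodes the sialomucin endomucin, had 17.7 and 15.7 CPM in Vwf+ Dnmt3a+/- cells and 20.4 and 17.6 CPM in Vwf+ WT cells, against 15.1 and 18.9 CPM in Vwf- Dnmt3a+/- cells and 17.6 and 20.0 CPM in Vwf- WT cells. The fractions overlapped for both genes. The log2 differences were 0.09 ± 0.10 for Robo4 and -0.01 ± 0.15 for Emcn (SE), with ranges of 0.02 to 0.15 and -0.09 to 0.07 when any 1 library was left out. Esam and Robo4 lie on the same strand with starts 126181 bp apart.

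**Figure D2:**
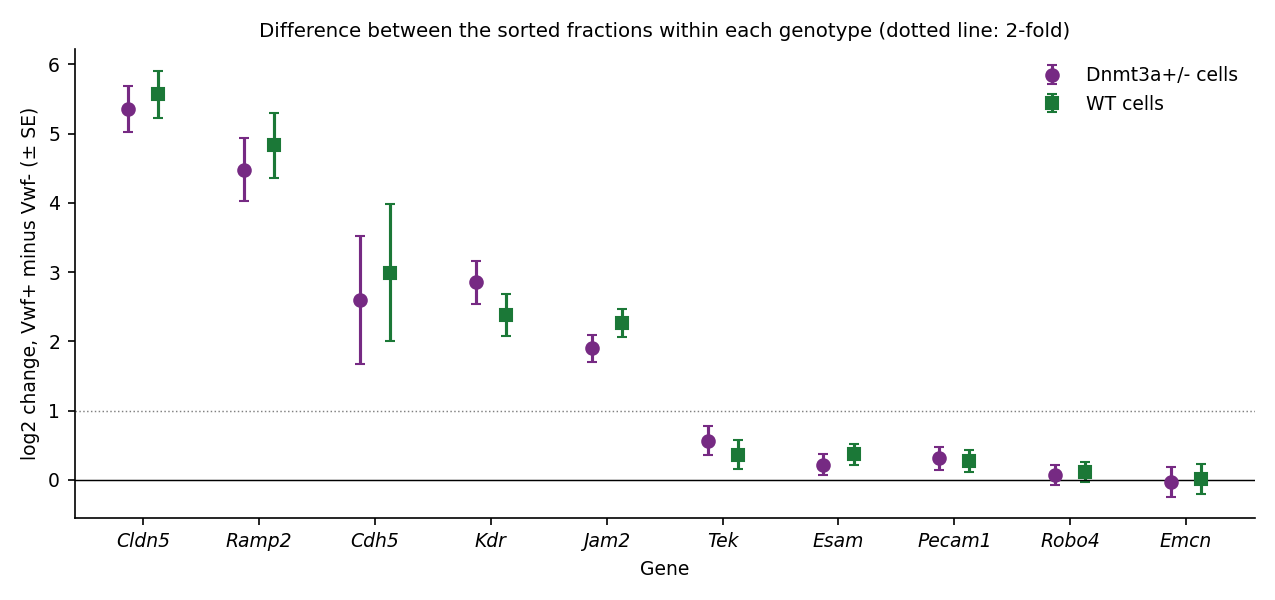
Vwf+ minus Vwf- difference on the log2 scale (vertical axis) of each gene in Dnmt3a+/- cells (circles) and WT cells (squares), with bars of 1 SE on either side from the edgeR fit and 2 libraries in each group. The dotted line marks a 2-fold difference. In both genotypes Cldn5 and Ramp2 stand above 4, Cdh5, Kdr and Jam2 between 1.9 and 2.99, and the other 5 genes below 1.

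Levels of different genes were compared only in the deposited TPM, which divide by gene length and sum to 1e+06 in each library. In Vwf+ cells the order by mean TPM was Esam (118 ± 13.8, SD over 4 libraries), Ramp2 (53.9 ± 15.3), Cldn5 (48.0 ± 7.90), Tek (41.0 ± 6.67), Robo4 (38.7 ± 6.09), Pecam1 (38.6 ± 3.60), Jam2 (27.2 ± 0.889), Emcn (25.2 ± 3.53), Kdr (15.3 ± 3.42) and Cdh5 (0.989 ± 0.626). The library ranges of neighbours in this order separated Esam from Ramp2, Pecam1 from Jam2, Emcn from Kdr and Kdr from Cdh5, while the other neighbours overlapped. In Vwf- cells Esam (99.1 ± 9.14 TPM) again led, followed by Robo4 (37.3 ± 2.76), Pecam1 (32.6 ± 4.68), Tek (30.6 ± 6.73) and Emcn (26.2 ± 3.58), and the ranges of the last 4 overlapped from each to the next. Well below them came Jam2 (6.68 ± 0.991 TPM), Kdr (2.59 ± 0.758), Ramp2 (2.24 ± 0.693), Cldn5 (1.12 ± 0.278) and Cdh5 (0.151 ± 0.102). There the ranges separated Esam from Robo4, Emcn from Jam2, Jam2 from Kdr and Cldn5 from Cdh5. Cldn5 and Ramp2 were thus near the level of Tek and Robo4 in Vwf+ cells and far below it in Vwf- cells.

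To set the 10 genes beside endothelium as a whole, 32 further genes that mark endothelial cells in general were followed, all of which were in the tables. Of these, 26 passed the filter, 6 rose in Vwf+ cells and none fell, in edgeR's test with Benjamini-Hochberg adjustment over all 15917 genes, beside 3.76% of all genes that rose and 1.68% that fell. The risen genes were the transcription factor gene Sox18 (1.88 ± 0.19, adjusted p = 0.00036), the Notch ligand gene Dll4 (2.10 ± 0.51, adjusted p = 0.04), Ecscr (1.30 ± 0.23, adjusted p = 0.0095), the Rap1 and Ras interactor gene Rasip1 (2.04 ± 0.27, adjusted p = 0.0019), the endothelial phosphatase gene Ptprb (4.27 ± 0.78, adjusted p = 0.01) and the ephrin gene Efnb2 (1.74 ± 0.22, adjusted p = 0.0014), as edgeR log2 changes with SE. The median log2 change of the 26 was 0.75, against -0.01 over all genes, and 23 of the 26 were positive. Because the list was made with earlier results of these data known, nothing is read from its share beside that of all genes. Dll4 lost its call in 4 of 8 fits with a library left out, with adjusted p of 0.12 without the female Vwf- WT, 0.089 without the male Vwf+ Dnmt3a+/-, 0.11 without the male Vwf+ WT and 0.075 without the female Vwf+ WT library. The other 5 were called whichever library was left out, but Ptprb was not on TPM with limma (log2 changes of 1.53 and 1.02, adjusted p = 0.062 and 0.067). Its log2 change ran between 3.71 and 7.09 when a library was left out, and was highest without the male Vwf- Dnmt3a+/- library, which leaves that group with a library of 0 counts. Dll4 was also not called on TPM with limma (log2 changes of 1.88 and 1.62, adjusted p = 0.07 and 0.061). With the replicate number as a block 9 of the 26 passed, beside 2132 of all 15917 genes. The added genes were Clec14a (adjusted p = 0.0065, edgeR), Adgrf5 (0.024) and Aqp1 (0.0017). The test called 0 of the 26 for Dnmt3a+/- against WT in Vwf+ cells, where edgeR called 0 of all genes.

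In level, most of these endothelial markers were low. In all 4 Vwf+ libraries, 10 of the 32 stayed below 1 CPM, and 9 of the 32 reached 10 CPM in any library, although none was at 0 throughout. The highest was the adhesion receptor gene Adgrl4, at 468 to 588 CPM in Vwf+ and 380 to 481 CPM in Vwf- cells, followed by the water channel gene Aqp1, at 30.2 to 41.7 CPM in Vwf+ and 17.5 to 31.7 CPM in Vwf- cells. Rasip1 came next, at 22.5 to 34.5 CPM in Vwf+ and 4.89 to 10.6 CPM in Vwf- cells. Of the 20 tested markers that did not pass, 17 had a positive and 3 a negative log2 change, and 4 were over 1, namely Sox7 at 2.33 ± 0.94, Esm1 at 3.16 ± 1.16, Adgrf5 at 1.45 ± 0.40 and Gja5 at 1.14 ± 1.00 (SE). Their levels were at most 4.05 CPM in Vwf+ cells and 1.95 CPM in Vwf- cells, both in Adgrf5. Some widely used markers are added here, chosen after their values were seen and all of them low. Of them, Flt1, Flt4 and Plvap were tested and not called, while Cav1 and Sox17 did not pass the filter and were not tested. These markers do not stand for the list, where 23 of 26 tested genes had a positive log2 change. Flt1, the other VEGF-A receptor gene, had 0.253 to 0.56 CPM in Vwf+ and 0.21 to 0.926 CPM in Vwf- cells, and the lymphatic receptor gene Flt4 2.45 to 4.87 CPM in Vwf+ and 2.91 to 5.56 CPM in Vwf- cells. Plvap, of fenestrated endothelium, had 0.517 to 3.33 CPM in Vwf+ and 0.766 to 1.86 CPM in Vwf- cells, and its fractions overlapped, as did those of Flt1 and Flt4. The caveolar gene Cav1 stayed at or below 0.27 CPM in Vwf+ and 0.143 CPM in Vwf- cells. Sox17, a factor of arterial endothelium, had counts in 1 of the 4 Vwf+ libraries, at 0.132 CPM. In Vwf- cells Sox17 had 0.03 to 0.248 CPM, with counts in every library.

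Summed over the 32 markers, the level was 702 and 653 CPM in Vwf+ Dnmt3a+/- cells and 785 and 624 CPM in Vwf+ WT cells, against 465 and 523 CPM in Vwf- Dnmt3a+/- cells and 558 and 499 CPM in Vwf- WT cells. Adgrl4 made up most of each sum. Without it, a choice made after its level was seen, the sums were 184 and 180 CPM in Vwf+ Dnmt3a+/- cells and 198 and 156 CPM in Vwf+ WT cells, against 84.5 and 81.8 CPM in Vwf- Dnmt3a+/- cells and 77.1 and 71.2 CPM in Vwf- WT cells. With or without Adgrl4, the sum of the endothelial markers was therefore higher in every Vwf+ library than in any Vwf- library. Such a sum is set by the most abundant markers, so it was not compared with the folds of single genes. Within the 10 genes, TPM of Cldn5 was 75.4 and 22.5 times that of Cdh5 in Vwf+ Dnmt3a+/- cells and 77.8 and 65.7 times in Vwf+ WT cells. The female Vwf+ Dnmt3a+/- library, with the highest Cdh5, had the lowest of these ratios. Its Cldn5 was the lowest of the 4 in CPM but not in TPM (43.1, against 42.4 in the female Vwf+ WT library). In Vwf- cells the ratios were 8.23 and 3.87 (Dnmt3a+/-) and 70.4 and 5.0 (WT), from low counts of both genes. The part of endothelial cells in the levels of the 10 genes was not tested.

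**Figure D3:**
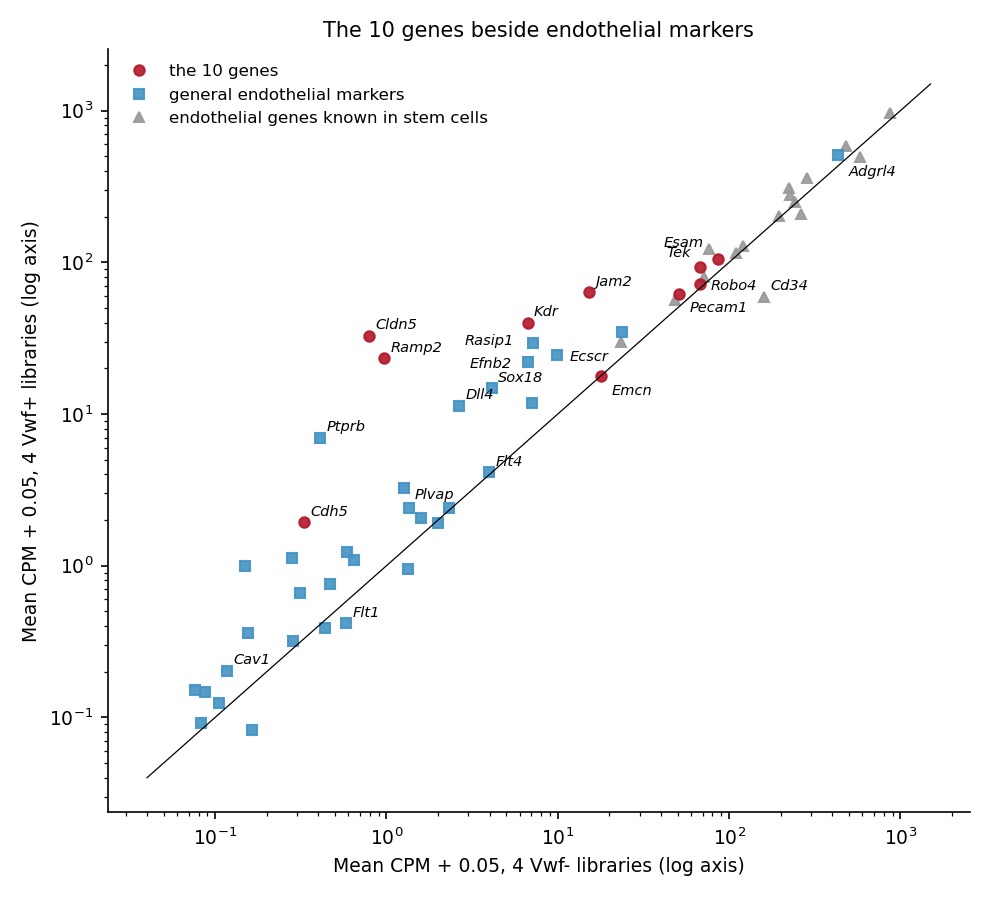
Mean CPM plus 0.05 in the 4 Vwf+ libraries (vertical, log axis) against that in the 4 Vwf- libraries (horizontal, log axis) for the 10 genes (red circles), 32 general endothelial markers (blue squares) and 16 endothelial genes also known in blood stem cells (grey triangles), with the line of equal levels. Cldn5 and Ramp2 lie farthest above the line, Robo4 and Emcn on it, and 10 of the 32 general markers stay below 1 CPM in every Vwf+ library.

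Of 16 endothelial genes that blood stem cells are also known to express, all 16 passed the filter. In edgeR's test 1 rose and 1 fell in Vwf+ cells, beside 3.76% and 1.68% of all genes. The median log2 change of the 16 was 0.16. Fli1, an ETS factor gene of blood and endothelium, rose by 0.46 ± 0.10 on the log2 scale (SE, adjusted p = 0.027), with 295 to 323 CPM in Vwf+ and 215 to 238 CPM in Vwf- cells. Cd34, a sialomucin of endothelium and of progenitors, fell by 1.44 ± 0.14 (SE, adjusted p = 0.00032), with 51.8 to 66.1 CPM in Vwf+ and 121 to 185 CPM in Vwf- cells. Its call did not depend on any 1 library, while that of Fli1 was lost in 6 of 8 fits with a library left out (adjusted p up to 0.14), the exceptions being the 2 Vwf- Dnmt3a+/- libraries. On TPM with limma Fli1 was not called (adjusted p = 0.09 and 0.088). With the replicate number as a block, 5 of the 16 passed, beside 2132 of all 15917 genes. These were Eng, Fli1 and Procr in the higher direction and Cd34 and Cd93 in the lower. The most abundant, the transcription factor genes Lmo2, Etv6 and Gata2, were at 837 to 1028, 457 to 534 and 551 to 662 CPM in Vwf+ cells and at 733 to 988, 547 to 607 and 452 to 523 CPM in Vwf- cells, and none of them passed. Summed CPM of the 16 was 4126 to 4407 in Vwf+ and 3867 to 4098 in Vwf- cells.

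The partners of the 10 genes, that is their ligands, co-receptors, junction scaffolds and related family members, comprised 58 genes, of which 55 were in the tables and 49 were tested. In edgeR's test 5 rose and 3 fell in Vwf+ cells, beside 3.76% and 1.68% of all genes, and the median log2 change was 0.21. The risen gene Ptprb and the fallen gene Cd34 were also counted in the lists above. With the replicate number as a block 13 of the 49 passed, beside 2132 of all 15917 genes. The most abundant partners, Angpt1, Ctnnb1 and Itgb1, did not pass, with log2 differences of -0.01 ± 0.12, 0.08 ± 0.15 and 0.06 ± 0.13 (SE).

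Of the junction partners, the tight-junction gene Ocln (occludin) had 22.5 and 27.1 CPM in Vwf+ Dnmt3a+/- cells and 24.1 and 30.5 CPM in Vwf+ WT cells, against 4.92 and 5.87 CPM in Vwf- Dnmt3a+/- cells and 5.20 and 5.55 CPM in Vwf- WT cells. The fractions were as cleanly separated as for Jam2, and Ocln rose by 2.27 ± 0.17 on the log2 scale (SE, adjusted p = 6.9e-05, edgeR). Jam3, which encodes the JAM-C that binds JAM-B, had 30.7 and 21.2 CPM in Vwf+ Dnmt3a+/- cells and 31.3 and 28.3 CPM in Vwf+ WT cells, against 15.5 and 12.2 CPM in Vwf- Dnmt3a+/- cells and 14.3 and 13.4 CPM in Vwf- WT cells. It rose by 1.00 ± 0.17 (SE, adjusted p = 0.0059), so the pair of JAM partners was higher in the same fraction. The junction scaffold gene Magi1 rose by 1.13 ± 0.26 (SE, adjusted p = 0.032), and the sialomucin gene Podxl by 0.69 ± 0.12 (SE, adjusted p = 0.0081). Itga4, whose integrin also binds JAM-B, fell by 0.59 ± 0.11 (SE, adjusted p = 0.013), with 166 to 203 CPM in Vwf+ and 253 to 325 CPM in Vwf- cells. The calls of Ocln, Jam3 and Podxl held whichever library was left out, but that of Podxl was lost on TPM with limma (adjusted p up to 0.058). Magi1 lost its call in 5 of 8 such fits, with adjusted p of 0.052 without the female Vwf- Dnmt3a+/-, 0.15 without the female Vwf- WT, 0.089 without the female Vwf+ Dnmt3a+/-, 0.078 without the male Vwf+ WT and 0.1 without the female Vwf+ WT library. Itga4 lost its call without the female Vwf- WT (0.077) or the female Vwf+ WT library (0.085). Magi1 was also not called on TPM with limma (adjusted p = 0.19 and 0.18), nor was Itga4 on log2(TPM + 1). F11r, Cldn12 and Tjp1 missed the threshold without the block and passed with it, with log2 changes of 0.48, 0.54 and 0.48 in that fit.

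Of the receptor partners, some are named for their role and after their values were seen. Calcrl, which encodes the receptor that Ramp2 accompanies, had 114 to 157 CPM in Vwf+ and 90.6 to 107 CPM in Vwf- cells, a log2 difference of 0.47 ± 0.12 that missed the threshold (SE, adjusted p = 0.054, edgeR) and passed with the block (adjusted p = 0.0015). Ramp1, which couples the same receptor to the peptide CGRP, went the other way, with 81.1 and 52.7 CPM in Vwf+ Dnmt3a+/- cells and 66.7 and 59.6 CPM in Vwf+ WT cells, against 117 and 112 CPM in Vwf- Dnmt3a+/- cells and 128 and 94.8 CPM in Vwf- WT cells. It fell by 0.80 ± 0.15 (SE, adjusted p = 0.013, and 0.07 without the female Vwf+ WT library), so the transcripts of these accessory proteins differed in opposite directions between the fractions. Ramp3 stayed at or below 0.09 CPM in Vwf+ and 0.21 CPM in Vwf- cells, and the ligand genes Adm and Calca were too low to be tested. The VEGF ligand genes did not pass, with 18.7 to 32.8 CPM of Vegfa in Vwf+ cells against 19.2 to 20.7 CPM in Vwf- cells. Angpt2, also a Tie2 ligand gene, missed the threshold (log2 difference -0.88 ± 0.23 SE, adjusted p = 0.059) and passed with the block (adjusted p = 0.011). Ptprb, which encodes the phosphatase that acts on Tie2 and was also listed above among the endothelial markers, had 10.8 and 7.64 CPM in Vwf+ Dnmt3a+/- cells and 7.11 and 2.20 CPM in Vwf+ WT cells, against 0.43 and 0 CPM in Vwf- Dnmt3a+/- cells and 0.885 and 0.12 CPM in Vwf- WT cells.

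Megakaryocyte genes moved in the same comparison. Of 14 tested, 5 rose (Pf4, Itgb3, Gp1bb, Clec1b and Selp) and 1 fell (Plek), beside 3.76% and 1.68% of all genes (edgeR). The 15 genes summed to 1335 and 1609 CPM in Vwf+ Dnmt3a+/- cells and 1344 and 1401 CPM in Vwf+ WT cells. In Vwf- cells they summed to 894 and 851 CPM (Dnmt3a+/-) and 880 and 945 CPM (WT). Itgb3, Clec1b and Selp were called whichever library was left out. Pf4 and Gp1bb lost their calls without the female Vwf+ Dnmt3a+/- library (adjusted p = 0.079 and 0.052) or the female Vwf- WT library (0.058 and 0.053), and Pf4 also without the female Vwf+ WT library (0.12). Plek lost its call without the male Vwf- WT (0.06), the male Vwf+ WT (0.067) or the female Vwf+ WT library (0.098). Esam and Pecam1 are themselves carried by platelets. Of 12 stromal genes tested, the chemokine gene Cxcl12 rose (1.43 ± 0.34, adjusted p = 0.037, edgeR), a call lost without the female Vwf- WT (0.054), the male (0.058) or female (0.066) Vwf+ Dnmt3a+/- or the male Vwf+ WT library (0.13). Cxcl12 was 1 of the 12 tested to pass, beside 3.76% of all genes that rose. The 15 stromal genes summed to 43.7 to 81.8 CPM in Vwf+ and 34.6 to 63.8 CPM in Vwf- cells, with overlap. The female Vwf+ Dnmt3a+/- library was the highest Vwf+ library for 12 of the 15 megakaryocyte genes, 7 of the 15 stromal genes, 9 of the 32 endothelial markers and 2 of the 10 genes followed here. The 4 globin genes in the tables were listed at 0 in all 8 libraries. Without that library, the log2 difference between fractions was 5.57 for Cldn5 and 4.59 for Ramp2. The part of these other transcripts in the results was not tested.

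Between genotypes, none of the 10 genes passed in Vwf+ cells, in Vwf- cells, averaged over the fractions, or for the interaction of genotype with fraction. edgeR called 0 of 10 in each, beside 0.0% of all genes, and 0 of the 10 had an unadjusted p under 0.05 in any of the 4. Of all genes 363, 211, 516 and 159 did, in the order just given. With the replicate number as a block, edgeR called 6, 2, 30 and 0 of all genes in that order, and 0 of the 10. In that fit Kdr alone of the 10 had an unadjusted p under 0.05, in Vwf- cells (log2 difference -0.52 ± 0.20, SE). The differences and intervals that follow are from the fit without the block. DESeq2 and limma also called 0 of the 10. Of all genes DESeq2 called 3 in Vwf+ cells, 2 in Vwf- cells, 15 averaged over the fractions and 0 for the interaction. On either TPM scale limma called 1 averaged over the fractions and 0 in the others. In Vwf+ cells the Dnmt3a+/- minus WT difference was 0.06 for Cldn5 on the log2 scale (95% interval -0.52 to 0.64), -0.19 for Jam2 (-0.61 to 0.24), -0.03 for Kdr (-0.66 to 0.60) and -0.52 for Ramp2 (-1.37 to 0.32). Further differences were 0.01 for Esam (-0.32 to 0.35), -0.04 for Pecam1 (-0.40 to 0.32), 0.18 for Tek (-0.28 to 0.65), 0.12 for Robo4 (-0.21 to 0.45) and -0.19 for Emcn (-0.66 to 0.29). The intervals of Esam, Pecam1, Tek, Robo4, Jam2, Kdr, Emcn and Cldn5 stayed within a 2-fold difference either way, and those of Ramp2 and Cdh5 reached beyond it.

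Single libraries set some of these values. Cdh5 differed by 0.97 ± 0.87 (SE) in Vwf+ cells, and by 0.19 without the female Dnmt3a+/- library. The difference of Ramp2 in Vwf+ cells was 0.06 without the female WT library. The 2 Dnmt3a+/- values in Vwf+ cells lay above the 2 WT values for Cdh5 and Tek and below them for Jam2 and Pecam1. That was 2 of 10 genes in each direction, beside 14.3% of all genes above and 13.9% below. For Jam2 and Pecam1 the nearest values of the genotypes were equal as printed above, and in TPM the genotypes overlapped. Tek differed by 0.18, and by 0.06 without the female Vwf+ Dnmt3a+/- library. In Vwf- cells the largest differences were 1.36 ± 0.98 for Cdh5, where a WT library held 1 count, and -0.50 ± 0.30 for Kdr (SE).

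**Figure D4:**
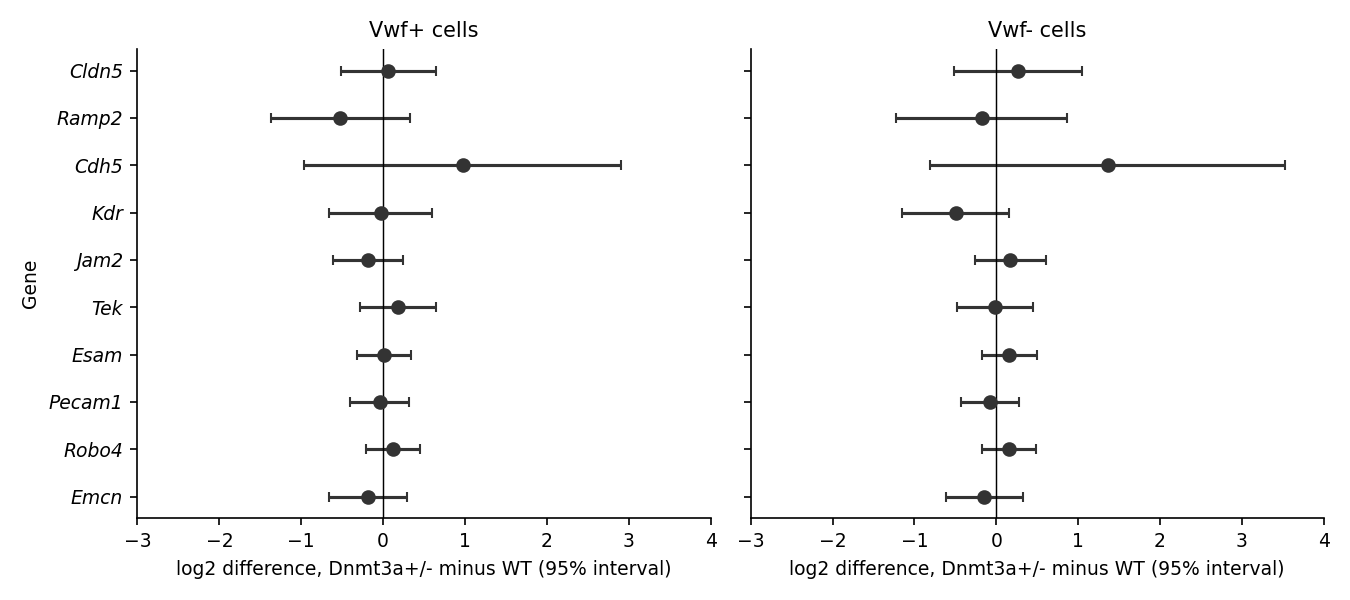
Dnmt3a+/- minus WT difference on the log2 scale (horizontal axis) of each gene in Vwf+ cells (left) and Vwf- cells (right), with 95% intervals from the edgeR fit. All intervals include 0, and those of Cdh5 are the widest.

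Male and female pools were compared in a fit of the 4 groups with a term for sex. Sex and replicate number are the same split in the labels and cannot be told apart. Kdr was higher in the male pool of all 4 groups, by 0.43 ± 0.14 on the log2 scale (SE, adjusted p = 0.049, edgeR), and was the 1 gene of the 10 to pass, beside 10.5% of all genes. That call was lost with DESeq2 (adjusted p = 0.061), with RLE scaling (0.056), on TPM with limma (0.27 and 0.28) and in 6 of 8 fits with a library left out. The 6 fits were those without the male or female Vwf+ WT (0.11 and 0.089), Vwf- Dnmt3a+/- (0.21 and 0.25) or Vwf- WT library (0.085 and 0.064). Tek and Ramp2 had lower values in males in 3 of the 4 groups, with log2 differences of -0.30 ± 0.11 and -0.57 ± 0.22 (SE) that did not pass (adjusted p = 0.075 and 0.097, edgeR). The exceptions were Vwf+ WT cells for Tek (88.4 CPM in males and 85.5 CPM in females) and Vwf- WT cells for Ramp2 (1.06 CPM in males and 0.871 CPM in females). Tek passed without the male or female Vwf+ WT library (adjusted p = 0.0017 and 0.003), and Ramp2 without the male or female Vwf- WT library (0.011 and 0.014).

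The genes most alike to the 10 across libraries were sought by the root mean square difference of log2 CPM, centred per gene, over the 8 libraries. The mean profile of the 10 was matched most closely by Slamf1 (0.0789), then Zkscan2 (0.17), Slc17a8 (0.174), Myo1e (0.189) and Nrg4 (0.201). The log2 changes of the 10 between fractions ran from -0.01 to 5.46, so their mean does not describe each of them. The matched genes had log2 changes of 1.62 to 2.03 between fractions. Because the 10 were chosen with that contrast in view, the match is a description only. Slamf1 encodes CD150, a marker on which both fractions were sorted, and it had 75.6 to 87.1 CPM in Vwf+ and 20.1 to 26.6 CPM in Vwf- cells. The nearest to Cldn5 were Clu (0.549) and Hoxb9 (0.769), and to Ramp2 Clu (0.357) and Tacr1 (0.391). To Kdr the nearest were Cd38 (0.167) and Fzd1 (0.204), and to the level profile of Emcn Stambpl1 (0.0477) and B3glct (0.067). Clu, which encodes the secreted chaperone clusterin, had 115 to 172 CPM in Vwf+ and 5.70 to 7.36 CPM in Vwf- cells. Cd38, which encodes an NAD-consuming ectoenzyme, had 20.7 to 31.2 CPM in Vwf+ and 2.68 to 6.58 CPM in Vwf- cells.

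Within 100000 bp of the starts of the 10 genes, GENCODE M21 places the starts of 34 other protein-coding genes, of which 30 were tested. Of these, 1 rose in Vwf+ cells and none fell (edgeR), beside 3.76% and 1.68% of all genes. The median log2 change was 0.01. The risen gene was Ezh1, which encodes a histone methyltransferase of Polycomb complexes and starts 19565 bp from Ramp2, with a log2 change of 0.93 ± 0.11 (SE, adjusted p = 0.00097) and mean levels of 125 CPM in Vwf+ and 65.2 CPM in Vwf- cells. With the replicate block 6 neighbours passed, beside 2132 of all 15917 genes. These were Ezh1, Wnk4, Ccr10 and Nrgn in the higher direction and Ccdc15 and Cdc45 in the lower. Cdc45 is the nearest tested neighbour of Cldn5 and had mean levels of 18.4 CPM in Vwf+ and 31.8 CPM in Vwf- cells, opposite in direction to Cldn5.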

How the data were processed

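RNA of 8 libraries was made into sequencing libraries with a low-input total RNA kit, per the labels' protocols. Per the submitters' processing notes, the build was mm10 and the tools included Trim Galore, STAR, featureCounts and DESeq2; the annotation, strand setting and versions are not given in the sources used here. The deposited tables hold whole-number counts per gene and TPM, both made by the authors.

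Counts were analysed with edgeR 4.0.16 in R 4.3.3 (filterByExpr with a minimum count of 10, TMM factors of 0.958 to 1.06, quasi-likelihood F-test on 4 group means, 4 residual degrees of freedom, common dispersion 0.0732). P-values were adjusted by Benjamini-Hochberg over 15917 genes, with a threshold of 0.05. SE is the size of the log2 change over the square root of F. In the fit on 4 group means, each p measures the spread between pools, which includes sex. The comparison of male with female pools and the fit with the replicate block hold a term for sex. Their spread therefore leaves sex out, with 3 residual degrees of freedom. GENCODE M21 (GRCm38, that is mm10) gave the gene positions. The 2 libraries of each group differed by more than counting noise (chi-square per degree of freedom 32.8 to 150) and were kept as separate replicates; libraries of different groups were not compared in this way.

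The same replicate number means the same sex in every group. Deviations of same-numbered libraries correlated across 15917 genes with r of 0.13, 0.3, 0.16, 0.23, 0.2 and 0.24 for the 6 pairs of groups, so the numbers were read as pairing, and a fit with the replicate number as a block (3 residual degrees of freedom) was run beside each comparison. Other alternatives were DESeq2 1.42.0, RLE scaling, no filter, limma 3.58.1 on log2(TPM + 0.5) and log2(TPM + 1) for genes above 0.5 TPM in at least 2 libraries, and leaving out each library. The fit was tested on simulated counts.

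The 10 genes and all lists were chosen with earlier results of these data known. The text names all 10 genes. For the endothelial, shared and partner lists it names the genes that passed between fractions and the 3 of highest mean CPM. Of the megakaryocyte and stromal lists and of the neighbours it names the genes that passed. The genes nearest in profile are named as well (5 to the mean of the 10 and 2 each to Cldn5, Kdr, Ramp2 and Emcn). Other genes were added, some with a note of it, and Ppbp and Tubb1 of the megakaryocyte list without one. Further genes passed between fractions in lists not treated above (edgeR). Elane rose, 1 of 9 neutrophil genes tested, beside 3.76% of all genes. Cd163 and Nkg7 fell, 1 of 14 monocyte and macrophage and 1 of 6 lymphoid genes tested, beside 1.68%. These lists, of monocyte and macrophage, neutrophil, lymphoid and erythroid genes, were also followed. Their summed levels overlapped between fractions: 247 to 272 CPM in Vwf+ and 197 to 259 CPM in Vwf- cells for monocyte and macrophage genes, 42.5 to 123 CPM and 18.9 to 66.4 CPM for neutrophil genes, 26.2 to 30.5 CPM and 27.1 to 32.9 CPM for lymphoid genes, and 16.7 to 18.9 CPM and 12.1 to 20.1 CPM for erythroid genes.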

Additional observations from a re-analysis of the deposited data

How the results depend on the processing

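The 5 genes with a log2 change over 1 between fractions (Cldn5, Ramp2, Kdr, Jam2 and Cdh5) were above 1 under every alternative run, except Cdh5 at 0.75 on log2(TPM + 1). The number of the 10 genes called between genotypes was 0 under all of them. For the genotype difference in Vwf+ cells, Ramp2 changed sign to 0.06 without Vwf+ WT replicate 2 (range -0.93 to 0.06 when a library was left out), and Kdr to 0.01 with the replicate block, 0.14 and 0.13 on log2(TPM + 0.5) and log2(TPM + 1), and 0.30 without Vwf+ WT replicate 1 (range -0.29 to 0.30), none past the threshold; limma on TPM shifts the median of all genes there by 0.13 and 0.12. Between male and female pools the count was 1, and 0 with DESeq2, RLE scaling and both TPM settings, with 0 to 1 when a library was left out. The gene behind a count of 1 differed: it was Kdr without either Vwf+ Dnmt3a+/- library, Tek without either Vwf+ WT library and Ramp2 without either Vwf- WT library.

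Of the endothelial markers 6 passed between fractions, 10 with no filter and 4 on either TPM scale. Of the endothelial genes shared with stem cells 2 passed, 5 with the replicate block, 1 on either TPM scale and 1 to 3 when a library was left out. Of the partners 8 passed, 13 with no filter, 13 with the replicate block, 5 and 4 on log2(TPM + 0.5) and log2(TPM + 1), and 5 to 10 when a library was left out (5 without Vwf+ WT replicate 2). Of the neighbours 1 passed, 4 with DESeq2, 4 with no filter, 6 with the replicate block and 1 to 5 when a library was left out (5 without Vwf- Dnmt3a+/- replicate 1). The block changed no other count by over 1.5 times, and the causes were not tested. Over all genes 866 passed between fractions, 2132 with the replicate block, 1649 with no filter and 1354 with DESeq2. Cdh5 had 1 to 98 counts a library, so its values are imprecise.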
